A study of Mus musculus with 32 samples.

Results

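The Wnt pathway genes described here are 50 genes of 55806 in the deposited count tables, chosen by symbol and not by any measured value. The choice left out the ligand gene Wnt4. They comprise 18 Wnt ligand genes, 10 Frizzled receptors, the co-receptors Lrp5 and Lrp6, 7 R-spondins and Lgr receptors, 10 secreted inhibitors and the intracellular genes Axin2, Lef1 and Tcf7. The inhibitors are Sfrp1, Sfrp2, Sfrp4, Sfrp5, Frzb, Wif1 and the genes Dkk1 to Dkk4. Wnt ligands are secreted lipid-modified proteins that bind a Frizzled receptor together with Lrp5 or Lrp6 and thereby stabilise beta-catenin, which acts with Lef1 or Tcf7 on target genes such as Axin2. R-spondins bound to Lgr receptors raise receptor levels at the cell surface, the Sfrp proteins, Frzb and Wif1 bind ligands outside the cell, and Dkk1 blocks Lrp co-receptors. In the embryonic kidney, Wnt9b from the ureteric epithelium induces nephron progenitors, Wnt11 at ureteric tips takes part in branching, and stromal cells and progenitors exchange further Wnt signals.

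RNA was sequenced in 32 libraries from mouse kidneys in which a tumour-derived form of ENL, a reader of acylated histones, was switched on by Cre recombinase. The T1 allele carries a small insertion and the T3 allele a small deletion in the YEATS domain, and each was a heterozygous conditional knock-in at the endogenous locus on a C57BL/6J background. Six2-TGC, a bacterial artificial chromosome transgene with Cre and GFP under Six2 control, drives recombination in nephron progenitors and their descendants, and Foxd1GC, a knock-in of Cre and GFP, does so in stromal progenitors. Sorted cells additionally carried a tdT reporter, and all cells were tdT-positive by the gate. Controls were Cre-positive as well. The ENL-WT groups were therefore Six2-TGCtg/+;Enl+/+ and Foxd1GC/+;Enl+/+, and the mutant groups Six2-TGCtg/+;EnlT1/+, Six2-TGCtg/+;EnlT3/+ and Foxd1GC/+;EnlT1/+. The Six2-TGC transgene carries a copy of Six3 that is aberrantly expressed, and the Foxd1GC allele lacks Foxd1 function, in controls and mutants alike. Whole kidneys of the Six2 line at E18.5 were measured in 2 libraries each of WT, T1 and T3, and sorted Six2-lineage cells in 3 WT and 3 T1 libraries at E14.5 and again at E18.5. Sorted Foxd1-lineage cells at E18.5 were measured in 4 WT and 4 T1 libraries, and whole kidneys of the Foxd1 line at that stage in 3 of each.

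Total counts per library ran from 67137194 to 157266455 outside the sorted Foxd1 cells and from 2557443 to 3508381 in those cells, so that 3 counts equal 0.0191 to 0.0446 CPM (counts scaled to library size) in the former and 0.841 to 1.22 CPM in the latter. Levels are CPM scaled by TMM factors, and folds are log2 with their SE. A call between genotypes needed a fold over 1.5 and an adjusted p under 0.05. Every adjusted p below comes from the quasi-likelihood test of edgeR, adjusted over all genes tested by the Benjamini-Hochberg method. Nothing states whether libraries came from separate embryos, so that p values measure only the spread between these libraries. Defining markers followed the labels, since stromal markers (9 genes) summed to 6911 to 9569 CPM in sorted Foxd1 WT cells and nephron progenitor markers (7 genes) to 1724 to 2023 CPM in sorted Six2 WT cells at E14.5. Markers of other cells were also present in sorted Foxd1 WT cells. Podocyte markers summed to 460 to 805 CPM there, endothelial markers to 242 to 448 and nephron progenitor markers to 111 to 167. The counts do not separate the Enl alleles, so the genotype itself was not checked.

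To show where these genes stood before mutation, levels were compared per kilobase of exon in WT libraries, with scales that were normalised separately in each experiment. Wnt4 is not among the ligands covered. Of those covered, Wnt5b was highest in sorted Six2 cells, at 11.7 ± 0.756 CPM per kb at E14.5 and 5.22 ± 0.327 at E18.5 (SD, n = 3). In sorted Foxd1 cells Wnt11 stood at 17.8 ± 2.04 CPM per kb and Wnt5a at 16.4 ± 1.56 (SD, n = 4), neighbours that lie within each other's spread. Fzd2 led the Frizzled receptors in sorted Six2 cells at E14.5 (93.7 ± 3.71 CPM per kb) and Fzd7 at E18.5 (39.6 ± 0.263), whereas Fzd1 led in sorted Foxd1 cells (63.6 ± 3.00). Among the inhibitors, Sfrp2 was highest in sorted Six2 cells at both stages (90.7 ± 14.1 and 44.3 ± 1.12 CPM per kb) and Sfrp1 in sorted Foxd1 cells (69.8 ± 2.95). Among the genes covered, each lineage thus had its own leading ligand, Frizzled receptor and inhibitor. Wnt3a and Wnt8a had 10 counts or fewer in every library of the series.

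Over the 6 comparisons of a mutant with its own WT group, 26 of the 50 genes were called at least once. Of these, 19 were called only higher, 7 only lower and none in both directions. Among the 26283 genes tested in at least one of these comparisons, 22.3% were called at least once, 9.39% only higher, 11.2% only lower and 1.69% in both directions, and 46 of the 50 Wnt genes were tested at least once. The T1 and T3 comparisons in whole Six2 kidneys share their WT libraries. Sfrp2 and Wif1 were called higher in 4 comparisons, Dkk2 and Wnt10b in 3, and Dkk1 and Wnt9b were called lower in 2.

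**Figure D1:**
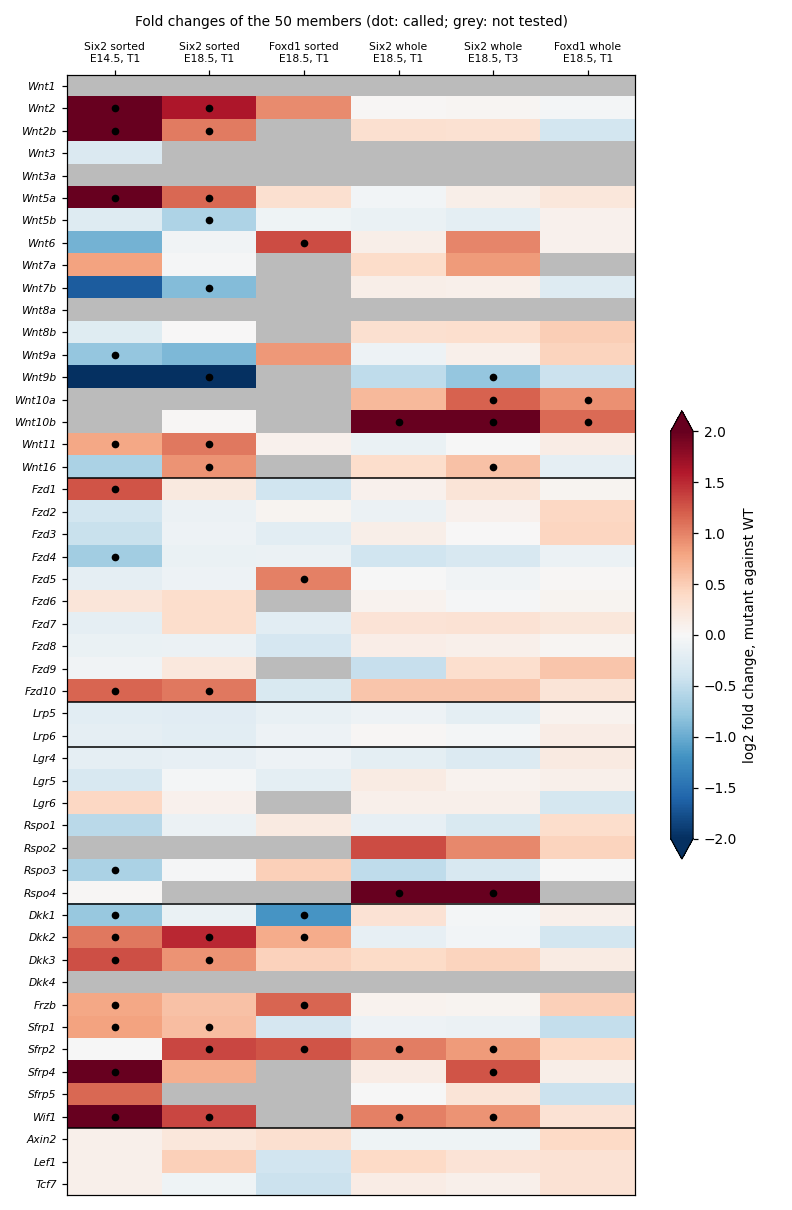
Fold change (log2, colour scale limited to -2 and 2) of the 50 Wnt pathway genes, in rows grouped by role, in the 6 comparisons of a mutant with WT, in columns. A dot marks a called gene and grey a gene with too few counts to test, and the columns of sorted Six2 cells hold 16 dots at E14.5 and 14 at E18.5.

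In nephrogenic (Six2-lineage) cells at E14.5, when the kidney is still rich in progenitors, most of the inhibitors that could be tested were called higher in T1, together with the ligands Wnt2, Wnt2b, Wnt5a and Wnt11 and the receptors Fzd1 and Fzd10. Of 43 genes with enough counts to test, 12 were called higher in T1 and 4 lower. Among all 22387 genes tested, 4.11% were called higher and 2.28% lower. The median log2 fold change was -0.07 over the tested Wnt genes and 0.00 over all genes. By role, 6 of 9 tested inhibitors were called higher and 1 lower, against 4 and 1 of 13 ligands and 2 and 1 of 10 Frizzled receptors. In a bulk library, fewer cells of a type and less RNA per cell cannot be told apart.

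Wnt2, a ligand of lung and vascular mesenchyme, was 0.462, 1.22 and 0.712 CPM in the WT libraries and 7.54, 7.13 and 7.83 in T1. Wnt5a, which mainly signals without beta-catenin, was 4.54, 4.90 and 7.44 CPM in WT and 30.2, 26.3 and 32.7 in T1. Both groups of libraries were far apart for these ligands, with log2 fold changes of 3.23 (SE 0.29, adjusted p = 0.000451) for Wnt2 and 2.40 (SE 0.18, adjusted p = 0.000174) for Wnt5a. Wnt2b, a close relative of Wnt2, was 0.186, 0.0515 and 0.158 CPM in WT and 1.11, 0.623 and 0.713 in T1 (log2 2.63, SE 0.48, adjusted p = 0.0108). Wnt11 was 14.3, 22.0 and 26.5 CPM in WT and 38.3, 32.5 and 36.6 in T1 (log2 0.77, SE 0.19, adjusted p = 0.0336). Its groups did not overlap, but its call was lost without WT replicate 1 (log2 0.56) and, with adjusted p between 0.0631 and 0.104, without WT replicate 2 or any single T1 library. Wnt9a, which acts in joint and bone formation, was the one ligand called lower, at 5.37, 5.43 and 3.89 CPM in WT and 3.20, 2.55 and 2.88 in T1 (log2 -0.77, SE 0.17, adjusted p = 0.0201). The Wnt9a call was lost without WT replicate 1 or 2 or T1 replicate 2 or 3 (adjusted p 0.0653 to 0.0802) and when all 12 sorted Six2 libraries were fitted together (adjusted p = 0.119).

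The receptors Fzd1 and Fzd10 rose. Fzd1 was 41.1, 40.2 and 53.4 CPM in WT and 118, 93.0 and 112 in T1 (log2 1.26, SE 0.12, adjusted p = 0.000553), and Fzd10 was 12.7, 13.4 and 17.6 in WT and 33.0, 32.2 and 32.6 in T1 (log2 1.16, SE 0.12, adjusted p = 0.000713). Fzd4, a receptor for Wnts and for norrin in vessels, fell from 95.2, 96.0 and 85.6 CPM to 56.9, 58.0 and 55.9 (log2 -0.70, SE 0.06, adjusted p = 0.000215). Rspo3, an R-spondin made by nephron progenitors and stroma, was 63.3, 81.2 and 61.2 CPM in WT and 43.9, 44.8 and 43.5 in T1 (log2 -0.64, SE 0.10, adjusted p = 0.00494). Without WT replicate 2, the Rspo3 fold dropped under the threshold (log2 -0.50). Of its exon length, 13.1% overlaps another gene, which matters because reads were counted without strand.

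Among the inhibitors, Frzb, Sfrp1, Sfrp4 and Wif1, which bind ligands, and Dkk2 and Dkk3 were called higher. Frzb had the tightest groups, at 98.9, 100 and 100 CPM in WT and 177, 171 and 164 in T1 (log2 0.77, SE 0.04, adjusted p = 3.96e-05). Dkk3, a divergent member of its family, was 9.06, 9.07 and 12.6 CPM in WT and 25.7, 20.6 and 29.0 in T1 (log2 1.29, SE 0.16, adjusted p = 0.00191). Both genes had every T1 library above every WT library. Wif1 was under 1 CPM in each WT library (0.543, 0.272 and 0.530) and 2.19, 1.76 and 2.30 in T1 (log2 2.22, SE 0.29, adjusted p = 0.00222). Dkk2 was 7.65, 6.02 and 7.74 CPM in WT and 17.6, 10.6 and 16.3 in T1 (log2 1.05, SE 0.19, adjusted p = 0.00924), and Sfrp1 was 50.6, 47.7 and 47.1 in WT and 99.2, 67.4 and 86.6 in T1 (log2 0.80, SE 0.12, adjusted p = 0.00418). T1 replicate 2 was the lowest T1 library for every Wnt gene called higher at this stage, ligands and receptors included, except Frzb. Sfrp4 was 0.753, 0.95 and 0.570 CPM in WT but 5.14, 1.15 and 2.92 in T1 (log2 2.02, SE 0.47, adjusted p = 0.0287), and its call was lost without any single library other than T1 replicate 2 (adjusted p 0.0707 to 0.0843). Dkk1, the classical Lrp antagonist and a target of the pathway, was the inhibitor that fell, from 27.1, 20.8 and 23.7 CPM to 11.7, 13.9 and 16.6 (log2 -0.76, SE 0.14, adjusted p = 0.0105).

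By E18.5, 4 days later, the sorted Six2 lineage has largely turned from progenitors to nephron epithelium in WT. Of 41 Wnt genes tested, 11 were called higher in T1 and 3 lower, where 6.14% of all tested genes were called higher and 5.54% lower. The median log2 fold change was 0.02 both over the tested Wnt genes and over all genes. Higher calls fell on 5 of 8 inhibitors, 5 of 13 ligands and 1 of 10 Frizzled receptors, and the 3 lower calls were all ligands.

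Sfrp2, a secreted inhibitor of progenitors and mesenchyme, was 98.0, 94.6 and 93.3 CPM in WT and 242, 236 and 244 in T1 (log2 1.33, SE 0.06, adjusted p = 4.96e-09). Here 16.1% of the exon length overlaps another gene. Dkk2 was 6.92, 8.54 and 9.44 CPM in WT and 19.9, 27.3 and 23.4 in T1 (log2 1.505, SE 0.14, adjusted p = 4.09e-06). Wif1 was 2.78, 2.92 and 1.22 CPM in WT and 5.13, 6.92 and 5.58 in T1 (log2 1.34, SE 0.26, adjusted p = 0.00243). In each of these inhibitors the lowest T1 library exceeded the highest WT library. Dkk3 reached a log2 fold change of 0.89 (SE 0.09, adjusted p = 6.02e-06) and Sfrp1 one of 0.62 (SE 0.09, adjusted p = 0.000307), the latter under the fold threshold without WT replicate 1 (log2 0.52). Frzb was 45.8, 42.1 and 45.0 CPM in WT and 64.0, 68.4 and 66.9 in T1, a log2 fold change of 0.58 (SE 0.07, adjusted p = 3.17e-05) that lay just under the fold threshold.

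Wnt5a was 14.3, 15.1 and 11.4 CPM in WT and 30.5, 31.0 and 29.5 in T1 (log2 1.15, SE 0.11, adjusted p = 4.17e-06). Wnt11 was 10.2, 8.11 and 7.37 CPM in WT and 18.2, 18.6 and 16.7 in T1 (log2 1.06, SE 0.12, adjusted p = 4.26e-05). Fzd10, a receptor that was also higher at E14.5, was 14.3, 11.5 and 12.8 CPM in WT and 26.1, 28.5 and 25.7 in T1 (log2 1.06, SE 0.10, adjusted p = 5.78e-06). All T1 libraries exceeded all WT libraries for these genes. Wnt2 was 0.279, 0.597 and 0.721 CPM in WT and 1.22, 1.62 and 2.06 in T1 (log2 1.62, SE 0.35, adjusted p = 0.0047), and Wnt2b reached a log2 fold change of 1.04 (SE 0.20, adjusted p = 0.00222). Wnt16, with a log2 fold change of 0.89 (SE 0.18, adjusted p = 0.00295), lost its call when all 12 sorted Six2 libraries were fitted together (adjusted p = 0.0796).

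The ligands called lower at E18.5 were Wnt5b, Wnt7b and Wnt9b, of which Wnt7b and Wnt9b are made by collecting duct epithelium. Wnt7b was 9.16, 9.27 and 7.96 CPM in WT and 5.37, 3.64 and 5.53 in T1 (log2 -0.86, SE 0.16, adjusted p = 0.0018), a call that was lost with all 12 libraries in the fit (adjusted p = 0.154). Wnt9b had 11, 26 and 22 counts in WT and 4, 0 and 0 in T1 (adjusted p = 0.0104). That ratio, 15.9-fold lower, has a 95% exact interval of 5.89 to 60.2 that covers counting error only. The Wnt9b call was lost without WT replicate 2 or T1 replicate 2 or 3 (adjusted p 0.0524 to 0.0554) and in the 12-library fit (adjusted p = 0.0869). Wnt5b was 14.1, 12.9 and 14.6 CPM in WT and 8.84, 9.06 and 9.24 in T1 (log2 -0.62, SE 0.10, adjusted p = 0.000689), and fell under the fold threshold without WT replicate 3 (log2 -0.58) or with scaling by library size alone (log2 -0.52).

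The stages have libraries of their own, including their controls, and 9 genes were called higher at both. These were the ligands Wnt2, Wnt2b, Wnt5a and Wnt11, the receptor Fzd10 and the inhibitors Dkk2, Dkk3, Sfrp1 and Wif1, that is 75% of those called higher at E14.5 and 81.8% of those at E18.5. Over all genes the shares were 48.3% and 32%. None was called lower at both stages.

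**Figure D2:**
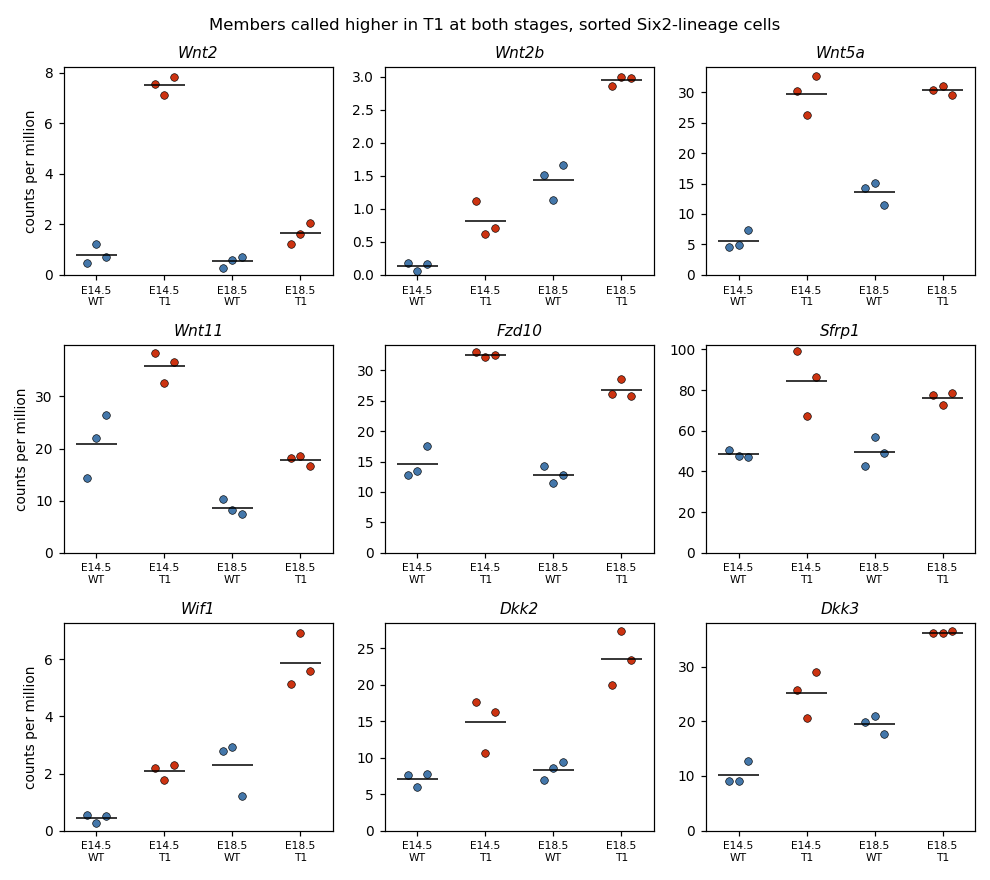
Level in CPM (linear axis from 0) of the 9 genes called higher in T1 at both stages, with 1 point per library and a bar at the group mean, in sorted Six2-lineage cells. T1 points (red) lie above WT points (blue) in every panel at both stages, and for Wnt2 the T1 level was higher at E14.5 (7.13 to 7.83 CPM) than at E18.5 (1.22 to 2.06).

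Markers of other cell types moved with these genes in the same libraries. Stromal markers summed to 459 to 627 CPM in WT and 909 to 1881 in T1 at E14.5. Of these 9 markers, 7 were called higher and Foxd1, the defining stromal progenitor marker, was called lower. The stromal sum at E18.5 was 316 to 554 in WT and 769 to 892 in T1, with 5 of 9 called higher and 2 lower. T1 replicate 2 at E14.5, the lowest T1 library for every Wnt gene called higher at that stage except Frzb, also had the lowest T1 stromal sum. At E14.5 nephron progenitor markers summed to 1724 to 2023 CPM in WT and 891 to 1098 in T1. At E18.5 they summed to 434 to 566 in WT and 184 to 236 in T1, podocyte markers to 2486 to 2916 and 159 to 193, tubule markers to 1287 to 1677 and 456.3 to 538.2, macrophage markers to 35.7 to 39.2 and 96.5 to 111, and red cell markers to 102 to 203 and 1491 to 2200. The sum of 5 neural markers was higher in T1 at E14.5 (25.0 to 29.5 CPM in WT, 36.9 to 41.9 in T1) and at E18.5 (21.6 to 29.2 and 49.7 to 53.1). Of 4 neural markers tested at E14.5, 2 were called higher. Only 2 were tested at E18.5, of which 1 was called higher (log2 2.75) and the other had a log2 fold change of -0.17. Ureteric tree markers, which bear on Wnt7b and Wnt9b, summed to 75.6 to 96.5 CPM in WT and 68.5 to 88.0 in T1 at E18.5, and 4 of the 6 tested were called lower (median log2 -0.76). The part of these cells in the values above was not tested. Direct values exist for sorted Foxd1 WT cells, in a table normalised separately. There Sfrp2 averaged 31.6 CPM and Frzb 11.4, below the 95.3 and 44.3 of sorted Six2 WT cells at E18.5. Wnt5a averaged 128, Wnt11 73.6, Fzd10 46.0, Dkk2 38.6 and Dkk3 94.7, above their levels in sorted Six2 cells of either genotype. Wnt2 in these sorted Foxd1 WT cells, taken at E18.5, was below its level in sorted Six2 T1 cells at E14.5. Compared with sorted Six2 T1 cells of the same stage, E18.5, its mean was higher, with ranges that overlapped.

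The T1 effect differed between E14.5 and E18.5 in 5 genes by a test of the interaction, in which the log2 value at E18.5 minus that at E14.5 was higher for 3 and lower for 2 (adjusted p under 0.05, 46 genes tested). Over all genes, 3.94% had an interaction called higher and 4.22% one called lower. Sfrp2 differed most clearly. Its E14.5 levels of 227, 167 and 192 CPM in WT and 198, 190 and 194 in T1 overlapped (log2 -0.01, adjusted p = 0.965), and the change to the E18.5 effect was 1.36 (SE 0.12, adjusted p = 9.59e-06). The effect on Wnt5a was smaller at E18.5 (interaction log2 -1.24, SE 0.23, adjusted p = 0.00417), as was that on Fzd1, which was 1.26 at E14.5 and 0.19 at E18.5 (interaction log2 -1.06, SE 0.16, adjusted p = 0.000836). For Fzd4 the higher interaction value (log2 0.57, SE 0.08, adjusted p = 0.000512) came from an effect of -0.70 at E14.5 and -0.13 at E18.5, so that it too was smaller at E18.5. Fzd7 differed in sign, at -0.19 and 0.35 (interaction log2 0.55, SE 0.08, adjusted p = 0.000968), without being called at either stage. For Wnt2 the interaction was -1.60 (SE 0.49, adjusted p = 0.0668), so that the drop seen in its levels did not pass the test. E14.5 cells were released with trypsin and E18.5 cells with collagenase II, so stage and dissociation cannot be told apart.

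Because the members that moved together included ligands and inhibitors, their promoters were searched for the core sequence bound by Lef1 and Tcf7, CTTTGAT or CTTTGAA, on both strands of the 250 bases before each annotated start (RefSeq, GRCm38.p6). Of 50 genes, 33 had windows, 40 in all, and 3 windows (7.5%) held a match, against 7.48% of all 32851 windows. A window of each of Dkk1, Wnt11 and Wnt5b holds it. These are shown with that of Wnt2, a ligand with a large fold change whose window holds no match. Wnt11 and Wnt5b also have windows at other annotated starts, and those held no match. Dkk1 is at chr19:30549497-30549746 (minus strand), Wnt11 at chr7:98834862-98835111 (plus), Wnt5b at chr6:119449387-119449636 (minus) and Wnt2 at chr6:18030446-18030695 (minus), each printed 5′ to 3′ on the gene's strand up to the base before the start. Capitals mark the match, which begins 117 bases before the start in Dkk1, 71 in Wnt5b and, as the reverse complement, 51 in Wnt11.
Dkk1: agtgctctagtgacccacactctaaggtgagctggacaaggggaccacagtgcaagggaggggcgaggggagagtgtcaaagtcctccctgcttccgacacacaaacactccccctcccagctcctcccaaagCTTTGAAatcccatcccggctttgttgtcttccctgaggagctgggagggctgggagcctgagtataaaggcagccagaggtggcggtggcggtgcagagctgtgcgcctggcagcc
Wnt11: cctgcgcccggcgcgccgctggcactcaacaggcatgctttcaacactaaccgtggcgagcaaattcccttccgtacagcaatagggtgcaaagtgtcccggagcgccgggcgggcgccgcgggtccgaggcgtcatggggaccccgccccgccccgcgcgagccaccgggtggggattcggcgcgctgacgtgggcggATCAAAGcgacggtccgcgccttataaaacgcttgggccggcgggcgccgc
Wnt5b: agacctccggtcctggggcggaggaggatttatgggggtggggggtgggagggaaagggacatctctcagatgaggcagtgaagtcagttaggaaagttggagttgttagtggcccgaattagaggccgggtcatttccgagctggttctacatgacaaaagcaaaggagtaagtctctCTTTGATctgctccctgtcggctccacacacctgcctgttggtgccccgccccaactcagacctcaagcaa
Wnt2: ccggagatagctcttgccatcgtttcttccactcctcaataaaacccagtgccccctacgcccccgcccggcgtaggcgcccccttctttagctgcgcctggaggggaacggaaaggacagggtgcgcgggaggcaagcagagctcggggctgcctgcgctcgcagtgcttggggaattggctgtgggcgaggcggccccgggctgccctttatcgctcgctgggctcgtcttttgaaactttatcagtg
Dkk1 fell at E14.5, Wnt11 rose at both stages and Wnt5b fell at E18.5 in sorted Six2 cells, so the genes with a match moved in either direction. The member windows had a median GC content of 66.4%, against 52.4% over all windows. A match of these letters describes the sequence and not binding.

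In whole kidneys of the Six2 line at E18.5, 4 of 45 tested Wnt genes were called higher in T1 and none lower, where 2.88% of all genes were called higher and 4.88% lower. In T3, 7 were called higher and 1 lower, where 4.34% of all genes were called higher and 5.28% lower. Median log2 fold changes of the tested Wnt genes were 0.11 in T1 and 0.10 in T3, against -0.01 and -0.00 over all genes. Rspo4, Sfrp2, Wif1 and Wnt10b were called in both, and both comparisons use the same 2 WT libraries. Wnt2, Wnt5a, Wnt11 and Frzb were called in neither, with log2 fold changes of 0.02, -0.05, -0.14 and 0.07 in T1. Their values in T3 were 0.04, 0.12, -0.01 and 0.05. Fzd10 stood at 0.55 in T1 and 0.56 in T3 (log2), under the fold threshold. By the levels of Xist and Ddx3y, both T1 libraries were male, both T3 libraries female and the WT libraries mixed, so allele and sex cannot be told apart. None of the 50 genes lies on a sex chromosome.

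Rspo4, the R-spondin needed for nail growth, had 4 and 3 counts in the WT libraries, 90 and 55 in T1 and 38 and 37 in T3. The ratio was 21.2-fold in T1 (95% exact interval of the counts 10.1 to 53.8, adjusted p = 0.000637) and 13.7-fold in T3 (6.35 to 35.3, adjusted p = 0.00117). Wnt10b, a ligand of skin and bone, was 0.0384 and 0.105 CPM in WT, 1.25 and 0.832 in T1 and 1.02 and 1.60 in T3, with log2 fold changes of 3.81 (SE 0.50, adjusted p = 0.00175) and 4.14 (SE 0.50, adjusted p = 0.00101). Both genes were near the floor of detection in WT and stayed under 2 CPM in mutants. Sfrp2 was abundant throughout, at 52.3 and 66.9 CPM in WT, 121 and 122 in T1 and 108 and 107 in T3. Its log2 fold changes were 1.03 (SE 0.10, adjusted p = 0.000677) and 0.85 (SE 0.10, adjusted p = 0.00134). Wif1 was 1.48 and 2.25 CPM in WT, 3.54 and 3.95 in T1 and 3.77 and 3.22 in T3. Its calls (log2 1.00 and 0.90, adjusted p = 0.0178 and 0.024) were lost without T1 replicate 1 (adjusted p = 0.0693 in T1) or T1 replicate 2 (0.122 in T1 and 0.0512 in T3), without T3 replicate 1 or 2 (0.132 and 0.0633 in T3), and in T3 with only the compared libraries (0.0549).

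Sfrp4, Wnt10a and Wnt16 were called higher in T3 alone, and the difference between alleles was not called for any of them. Sfrp4 was 0.807 and 0.777 CPM in WT and 2.06 and 1.72 in T3 (log2 1.25, SE 0.21, adjusted p = 0.00552). Wnt10a was 0.615 and 0.481 CPM in WT and 1.37 and 1.11 in T3 (log2 1.18, SE 0.25, adjusted p = 0.0178), with the call lost without T3 replicate 1 (adjusted p = 0.109). Wnt16 (log2 0.59, SE 0.15, adjusted p = 0.0356) lost its call without any single library of the 6 (adjusted p 0.0608 to 0.153) and with only the compared libraries (0.0674). Wnt9b, the ureteric inducer of nephron progenitors, was 36.1 and 50.5 CPM in WT, 29.9 and 31.2 in T1 and 24.5 and 26.0 in T3. The T3 difference (log2 -0.78, SE 0.14, adjusted p = 0.00858) was called, but the WT libraries lay further apart than those of either mutant. Without WT replicate 2, which had the higher Wnt9b and a skeletal muscle marker sum of 49.6 CPM against 4.62 in the other, the fold was under the threshold (log2 -0.50), and without T3 replicate 1 or 2 the adjusted p was 0.07 or 0.0513. Ureteric tree markers summed to 670 to 791 CPM in WT, 596 to 598 in T1 and 535 to 579 in T3. Of these 7 markers, 1 was called higher and 2 lower in T1, and 1 higher and 4 lower in T3. Macrophage markers summed to 148 to 149, 211 to 231 and 223 to 245. Nephron markers moved further. Tubule markers summed to 2649 to 2825 CPM in WT, 655 to 768 in T1 and 618 to 701 in T3, podocyte markers to 849 to 952, 260 to 275 and 260 to 279, and nephron progenitor markers to 148 to 172, 89.4 to 91.8 and 75.9 to 91.8. The part of these cells in the values of whole Six2 kidneys was not tested.

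Between T3 and T1 no Wnt gene was called by edgeR's quasi-likelihood test, where 0.00418% of all genes were called higher and 0% lower. At an unadjusted p under 0.05, 3 Wnt genes of 45 were higher and 1 lower in T3, near the 4.9% and 2.29% of all genes, and DESeq2 and edgeR's exact test called 1 each.

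**Figure D3:**
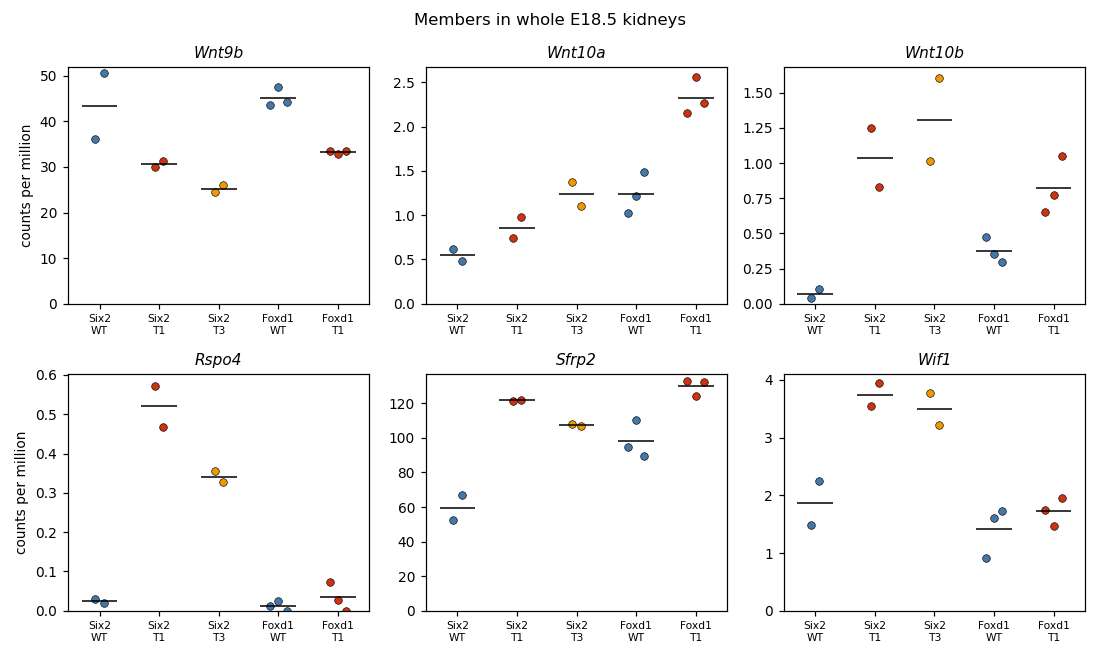
Level in CPM (linear axis from 0) of 6 Wnt pathway genes in whole E18.5 kidneys, with 1 point per library and a bar at the group mean, for the Six2 line (WT, T1 and T3) and the Foxd1 line (WT and T1), normalised separately. Rspo4 and Wnt10b were near 0 in Six2 WT and higher in T1 and T3, whereas Rspo4 stayed under 0.1 CPM in both Foxd1 groups.

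In stromal (Foxd1-lineage) cells sorted at E18.5, the low depth left 29 of the 50 genes to test. Of these, 5 were called higher in T1 and 1 lower, where 3.63% of all tested genes were called higher and 2.18% lower, and the medians were -0.09 and -0.00 (log2). Sfrp2 was 32.5, 32.4, 43.5 and 17.9 CPM in WT and 68.9, 81.9, 75.2 and 74.3 in T1 (log2 1.26, SE 0.16, adjusted p = 1.81e-05). Frzb was 13.5, 9.72, 11.8 and 10.6 CPM in WT and 25.0, 26.8, 25.4 and 24.8 in T1 (log2 1.16, SE 0.15, adjusted p = 2.45e-05). Each T1 library was above each WT library for both of these ligand-binding inhibitors. Dkk2 was 34.5, 30.6, 52.5 and 36.8 CPM in WT and 68.5, 60.7, 56.7 and 68.1 in T1 (log2 0.74, SE 0.13, adjusted p = 0.000861). Dkk1 went the other way, from 46.8, 97.2, 44.3 and 64.2 CPM to 22.7, 36.9, 24.3 and 27.7 (log2 -1.18, SE 0.22, adjusted p = 0.00101), with all T1 libraries below all WT libraries.

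Fzd5, a receptor of epithelia and vessels, was 7.29, 4.71, 5.29 and 8.39 CPM in WT and 16.8, 10.7, 14.2 and 10.4 in T1 (log2 1.01, SE 0.24, adjusted p = 0.00783), and 17.8% of its exon length overlaps another gene. Wnt6, an epithelial ligand, rested on 28 counts over the 4 WT libraries and 66 over the 4 T1 libraries, a 2.49-fold ratio (95% exact interval 1.58 to 4.03, adjusted p = 0.00709). Wnt5a and Wnt11, the most abundant of the covered ligands in these cells, were not called. Wnt5a was 136, 132, 134 and 110 CPM in WT and 159, 160, 154 and 166 in T1, without overlap but with a log2 fold change of 0.31 (SE 0.08, adjusted p = 0.0127) under the threshold. Wnt11 was 70.9, 85.4, 72.4 and 65.6 in WT and 71.2, 95.3, 69.7 and 77.6 in T1 (log2 0.09, adjusted p = 0.67), with groups that overlapped. Wnt2 was 3.92, 1.47, 6.10 and 2.55 CPM in WT and 4.47, 7.38, 6.54 and 7.82 in T1 (log2 0.95, SE 0.34, adjusted p = 0.0844), a low level for the depth of these libraries. Macrophage markers summed to 121 to 303 CPM in WT and 309 to 419 in T1, ureteric markers to 61.4 to 100 and 26.1 to 36.9, tubule markers to 99.2 to 260 and 50.5 to 93.5, with 4 of 5 tested called lower, and stromal markers to 6911 to 9569 and 7171 to 8090, with 1 of 9 called higher and 3 lower. Their part in these values was not tested.

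The T1 effect of the 2 lineages at E18.5 was then compared by an interaction over the 14 sorted E18.5 libraries, with 35 Wnt genes tested. The log2 value in Foxd1 cells minus that in Six2 cells was higher for 2 genes and lower for 10, where 8.25% of all genes were called with a higher and 7.63% with a lower interaction value. Among the lower values, the increase was smaller in Foxd1 cells for the ligands Wnt5a (difference -0.86, SE 0.12, adjusted p = 3.83e-05) and Wnt11 (-0.98, SE 0.16, adjusted p = 0.000167) and for Dkk2 (-0.78) and Dkk3 (-0.45). The effects had opposite signs for the receptor Fzd10, at 1.06 in Six2 and -0.30 in Foxd1 cells (difference -1.38, SE 0.17, adjusted p = 3.78e-06), for Sfrp1, at 0.62 and -0.34 (-0.98, SE 0.13, adjusted p = 1.45e-05), and for Lef1, at 0.48 and -0.39 (-0.89, SE 0.19, adjusted p = 0.00221). Fzd1 (0.19 and -0.40, difference -0.61) and Fzd7 (0.35 and -0.20, difference -0.58) likewise had opposite signs. Of these 5, Fzd10 and Sfrp1 were called in Six2 cells and none was called in Foxd1 cells. Dkk1 had the larger effect in Foxd1 cells, at -1.18 against -0.13 (difference -1.07). The increase of Frzb (1.16 against 0.58, difference 0.56, SE 0.14, adjusted p = 0.00735) and that of Fzd5 (1.01 against -0.11, difference 1.10, SE 0.24, adjusted p = 0.00204) were larger in Foxd1 cells. For Sfrp2, which rose in both lineages, the difference of effects was -0.10 (SE 0.18, adjusted p = 0.794). The Dkk1 call (adjusted p = 0.0358) was lost without Six2 T1 replicate 1, Six2 WT replicate 1, Foxd1 WT replicate 2 or Foxd1 T1 replicate 1, 3 or 4 (adjusted p 0.0597 to 0.111) and with DESeq2 (0.0836), and the Dkk3 call (0.0209) without Six2 WT replicate 3 (0.0597). The lineages were sequenced with reads of different length and at different depth, so lineage and sequencing cannot be told apart.

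**Figure D4:**
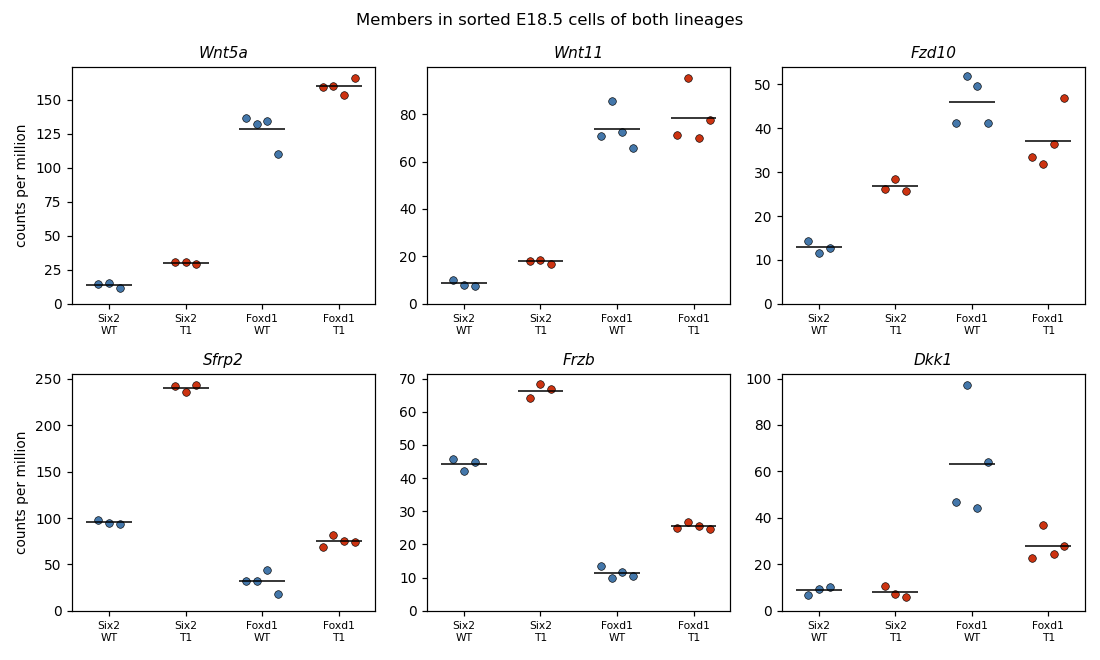
Level in CPM (linear axis from 0) of 6 Wnt pathway genes in sorted E18.5 cells of the Six2 and Foxd1 lineages, with 1 point per library and a bar at the group mean, each lineage normalised on its own. Wnt5a, Wnt11 and Fzd10 were higher in T1 than WT in Six2 cells and at a higher level in Foxd1 cells of both genotypes, while Sfrp2 was higher in T1 in both lineages.

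In whole kidneys of the Foxd1 line at E18.5, 2 of 43 tested Wnt genes were called higher in T1 and none lower, where 2.65% of all genes were called higher and 7.53% lower (medians 0.14 and -0.00, log2). At an adjusted p under 0.05 without regard to fold, 22 Wnt genes passed, 18 higher and 4 lower, where 16.4% of all genes passed higher and 17% lower. Wnt10a was 1.03, 1.21 and 1.49 CPM in WT and 2.15, 2.56 and 2.27 in T1 (log2 0.91, SE 0.19, adjusted p = 0.00317). Wnt10b was 0.474, 0.357 and 0.295 CPM in WT and 0.654, 0.770 and 1.05 in T1 (log2 1.13, SE 0.32, adjusted p = 0.0159), and its call was lost without T1 replicate 3 (adjusted p = 0.0837) or WT replicate 3 (0.0635). Both genes act in skin, hair and teeth, and neither had overlapping groups. Under the fold threshold lay Frzb, at 33.0, 33.2 and 31.3 CPM in WT and 48.7, 44.0 and 43.1 in T1 (log2 0.48, SE 0.06, adjusted p = 7.38e-05), and Sfrp2, at 94.6, 111 and 89.8 in WT and 133, 124 and 132 in T1 (log2 0.40, SE 0.07, adjusted p = 0.00078). Wnt9b was 43.6, 47.6 and 44.2 CPM in WT and 33.5, 32.9 and 33.5 in T1, also under the fold threshold. Dkk2, which was called higher in sorted Foxd1 T1 cells, was lower here without being called. It was 42.1 to 45.1 CPM in WT and 33.2 to 34.4 in T1. Ureteric markers summed to 819 to 973 CPM in WT and 622 to 697 in T1, but 2 of 7 were called higher and 2 lower (median log2 0.00). A skeletal muscle sum of 97.3 CPM was seen in 1 T1 library. Nephron progenitor markers summed to 294 to 313 CPM in WT and 439 to 551 in T1, with 4 of 7 called higher, and tubule markers to 2762 to 2851 and 1262 to 1689, with 4 of 6 called lower. The part of these cells was not tested.

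Axin2, Lef1 and Tcf7, which are commonly read as output of beta-catenin signalling or as its nuclear partners, were called in none of the 6 mutant comparisons. In sorted Six2 cells at E14.5, Axin2 was 14.4, 16.0 and 17.4 CPM in WT and 16.4, 16.3 and 18.7 in T1 (log2 0.11, adjusted p = 0.575), with overlapping groups. At E18.5 it was 77.6, 59.7 and 60.1 in WT and 72.6, 80.6 and 78.3 in T1 (log2 0.23, adjusted p = 0.115). Lef1 at E18.5 was 22.1, 24.6 and 24.9 CPM in WT and 32.3, 35.2 and 32.5 in T1, without overlap and with a log2 fold change of 0.48 (SE 0.08, adjusted p = 0.00101) under the fold threshold. In whole Six2 kidneys Lef1 was 18.4 and 19.1 CPM in WT and 25.1 and 24.2 in T1 (log2 0.39, adjusted p = 0.0146), and 13.7% of its exon length overlaps another gene. In whole Foxd1 kidneys Axin2 was 34.2, 35.5 and 34.8 CPM in WT and 42.3, 45.9 and 49.6 in T1 (log2 0.40, SE 0.06, adjusted p = 0.000381), again under the fold threshold. Tcf7 was 35.6, 36.2, 37.4 and 43.8 CPM in sorted Foxd1 WT cells and 27.6, 28.5, 28.7 and 28.0 in T1 (log2 -0.43, SE 0.11, adjusted p = 0.014), every T1 library being lower. Axin2 in the same cells was 16.8, 20.6, 22.8 and 16.8 CPM in WT and 21.2, 23.5, 25.1 and 26.1 in T1 (log2 0.33, adjusted p = 0.167), with overlapping groups.

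A list of 62 further pathway genes, from the destruction complex to target genes, was read beside these. In sorted Six2 cells 8 were called higher and 2 lower at E14.5, and 3 and 5 at E18.5. In sorted Foxd1 cells 0 of 57 tested were called higher and 3 lower. In whole kidneys the counts were 0 and 3 for Six2 T1, 0 and 2 for Six2 T3 and 2 and 1 for Foxd1 T1. As shares, 12.9% and 3.23% at E14.5 and 4.84% and 8.06% at E18.5 stand against the 4.11% and 2.28%, and the 6.14% and 5.54%, of all genes given above. In sorted Foxd1 cells 0% and 5.26% stand against 3.63% and 2.18% of all genes. In whole kidneys 0% and 4.84% stand against 2.88% and 4.88% (Six2 T1), and 0% and 3.23% against 4.34% and 5.28% (Six2 T3). For Foxd1 T1 whole kidneys 3.23% and 1.61% stand against 2.65% and 7.53%. Apcdd1 and Notum, extracellular inhibitors that are induced by the pathway, were called higher at both stages in sorted Six2 cells. Apcdd1 was 11.2, 11 and 14.1 CPM in WT and 24.1, 23.5 and 27.8 in T1 at E14.5 (log2 1.06, adjusted p = 0.000943), and its E18.5 log2 fold change was 0.82 (adjusted p = 4.65e-06). Notum had log2 fold changes of 0.61 (adjusted p = 0.0376) and 0.64 (adjusted p = 0.0162). Both belong to the 14 genes of secretion and receptor control, of which 4 others fell at E18.5 (median of the 14, log2 -0.27). These were Sostdc1 (log2 -1.28), the Dkk receptor Kremen1 (log2 -0.82), the Lrp antagonist Sost (log2 -0.80) and the proteoglycan Gpc4 (log2 -0.67). In sorted Foxd1 cells the genes that fell were the feedback inhibitor Nkd2 (log2 -1.29, adjusted p = 1.65e-05), the secreted Lrp ligand Sostdc1 (log2 -0.98, adjusted p = 0.000122) and the proteoglycan Gpc3 (log2 -0.73, adjusted p = 3.14e-06).

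Between E14.5 and E18.5 some receptors of WT sorted Six2 cells rose (Fzd5, Fzd3, Fzd4, Lgr4 and Lgr5), as did the co-receptors Lrp5 and Lrp6. Rspo1, Rspo3, Fzd2 and Fzd9 fell. With the stricter call for development (adjusted p under 0.01, fold over 2), 16 of 46 tested were higher and 10 lower at E18.5, where 24.8% of all genes were called higher and 20.6% lower (medians -0.05 and 0.02, log2). By role, 3 of 10 Frizzled receptors were called higher and 2 lower, and 2 and 2 of 7 R-spondins and Lgr receptors. Fzd5 went from 1.17, 1.10 and 0.736 CPM to 160, 165 and 137 (log2 7.37, SE 0.16, adjusted p = 2.38e-13). Both co-receptors rose, Lrp5 from 11.3, 11.1 and 11.3 CPM to 134, 121 and 115 (log2 3.57, SE 0.07, adjusted p = 1.74e-13) and Lrp6 from 113, 99.0 and 94.5 to 465, 507 and 482 (log2 2.35, SE 0.07, adjusted p = 2.89e-12). Axin2 rose as well (log2 2.16, SE 0.10, adjusted p = 1.76e-10), while Lef1 was called lower (log2 -1.10). The median of the 3 intracellular genes was -0.53 (log2). Lgr4, an R-spondin receptor, went from 108, 114 and 125 CPM to 369, 380 and 325 (log2 1.74, SE 0.10), and Wnt2b, Wnt7b, Wnt16 and Wif1 rose by log2 values of 3.55, 2.73, 2.65 and 2.48.

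Among the genes that fell were Rspo1 and Rspo3 of the 4 R-spondins, with Rspo3 going from 63.3, 81.2 and 61.2 CPM to 7.11, 7.47 and 7.00 (log2 -3.14, SE 0.16) and Rspo1 from 219, 256 and 226 to 59.6, 51.2 and 61.9 (log2 -1.91, SE 0.09). Fzd2, the leading Frizzled receptor at E14.5, went from 345, 356 and 329 CPM to 112, 102 and 106 (log2 -1.57, SE 0.06). Rspo2 and Rspo4 had at most 19 counts in these libraries and were not called (adjusted p = 0.417 and 0.636). Wnt1 had no count in the E14.5 libraries and 10, 7 and 12 at E18.5, at least 15.7-fold higher against a floor of 3 counts over the group. Wnt10b had 7 counts over the E14.5 and 57 over the E18.5 libraries, 13.2-fold higher (95% exact interval 6.01 to 34.3), and its call was lost without E14.5 WT replicate 2 or 3, E18.5 WT replicate 2 or 3 or any E18.5 T1 library (adjusted p 0.0121 to 0.0304) and with only the WT libraries in the fit (0.0109). Genes near the 2-fold threshold lost their calls under some settings. These were Dkk3 without E14.5 WT replicate 1 or 2 (log2 0.95 in both) or scaled by library size (0.90), Wnt11 without E14.5 WT replicate 3 (log2 -0.98), and Frzb (log2 -0.99) and Wnt5b (log2 -0.96) without E18.5 WT replicate 2. Scaling by RLE size factors gave log2 -0.93 for Frzb, -0.97 for Lef1 and -0.92 for Wnt5b, and Fzd9 reached adjusted p = 0.0117 without E18.5 WT replicate 2. The change of dissociation enzyme between stages cannot be told apart from age here either.

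**Figure D5:**
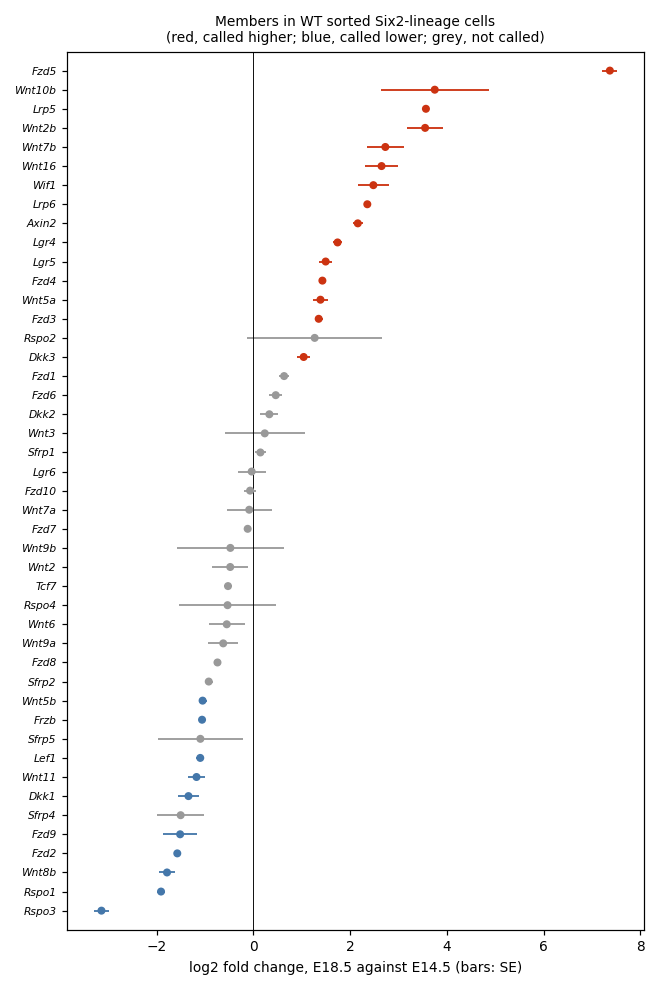
Log2 fold change of E18.5 against E14.5 in WT sorted Six2-lineage cells (x axis) for 45 of the 46 tested Wnt pathway genes in order of value, with bars for the SE, red for genes called higher, blue for lower and grey for not called. Fzd5 stands at the top at 7.37 and Rspo3 at the bottom at -3.14, and Wnt1 is not drawn because it had no count at E14.5.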

How the data were processed

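Libraries were made with a KAPA stranded mRNA kit (whole kidneys) or the SMART-Seq v4 ultra-low-input kit (sorted cells). Reads were aligned by the authors to mm10 with HISAT2 and counted with HTSeq without strand and without a minimum alignment quality, and the deposited values are raw counts per gene. The annotation release is not given in the sources used here. Unstranded counting assigns antisense reads to the same gene, so shared exon length is given where it exceeds 10% in a named gene.

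Groups and replicate numbers came from the sample titles. The analysis used edgeR 4.0.16 (R 4.3.3), with filterByExpr (minimum count 10, minimum total 15), TMM scaling and the quasi-likelihood test of edgeR, adjusted over all genes tested by the Benjamini-Hochberg method. Whole Six2 kidneys were fitted together, other genotype comparisons on their own libraries, development and the interaction with stage on all 12 libraries of sorted Six2 cells, and the interaction with lineage on the 14 sorted E18.5 libraries. The thresholds follow the study. Alternatives were RLE or library-size scaling, other filters, DESeq2 1.42.0, edgeR's exact test, other fold thresholds, a replicate block, other library sets and each library left out in turn. The methods were tested on simulated data.

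Genes given by name were those called in a comparison, the 3 intracellular genes and 7 genes that the study names for these data (Wnt2, Wnt5a, Wnt11, Fzd10, Frzb, Lef1 and Sfrp2), whose values are therefore not independent evidence. Members and lists were chosen with earlier results of these data known. Intervals and floors cover counting error only. Python 3.11.15 and matplotlib 3.10.9 made the plots.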

Additional observations from a re-analysis of the deposited data

Results flagged for a closer look

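One library lay apart from the rest of its group. Wnt5a in sorted Foxd1 WT cells was lowest at 110 CPM, by Dixon's test among 4 libraries. Of 22 gene and group pairs tested, 1 was marked in this way, and chance alone marks about 1 in 20.

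The T1 effect in sorted Six2 cells differed between stages, by the interaction term, in 5 genes. The difference (E18.5 effect minus E14.5 effect, log2) was 1.36 for Sfrp2, 0.57 for Fzd4, 0.55 for Fzd7, -1.06 for Fzd1 and -1.24 for Wnt5a.

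The T1 effect at E18.5 differed between lineages, by the interaction term, in 12 genes. The difference (Foxd1 effect minus Six2 effect, log2) was 1.10 for Fzd5 and 0.56 for Frzb. Lower values belonged to the receptors Fzd10 (-1.38), Fzd1 (-0.61) and Fzd7 (-0.58) and the ligands Wnt11 (-0.98) and Wnt5a (-0.86). They also belonged to the inhibitors Dkk1 (-1.07), Sfrp1 (-0.98), Dkk2 (-0.78) and Dkk3 (-0.45) and to Lef1 (-0.89).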

How the results depend on the processing

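Counts of called Wnt genes moved by over 1.5 times under these settings. With no fold threshold they were 9 in place of 4 (Six2 whole T1), 14 in place of 8 (Six2 whole T3), 11 in place of 6 (sorted Foxd1) and 22 in place of 2 (Foxd1 whole). With a fold over 2 they were 4 (Six2 whole T3), 9 and 9 in place of 16 and 14 (sorted Six2 E14.5 and E18.5) and 1 (Foxd1 whole), where a filter at 1 CPM also left 1. T3 against T1 gave 2 without a filter, 1 with DESeq2 and 1 with the exact test in place of 0. The stage interaction gave 8 with library-size scaling, 9 without a filter and 12 with DESeq2 in place of 5. Left-out libraries gave 3 to 6 (Six2 whole T1), 4 to 8 (T3, lowest without T3 replicate 1), 13 to 15 at both sorted Six2 stages, 6 to 8 (sorted Foxd1), 1 to 2 (Foxd1 whole, 1 without T1 or WT replicate 3), 22 to 27 (development), 5 to 7 (stage) and 11 to 14 (lineage).

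Replicate numbers did not pair the libraries (1 of 19 same-number pairs had a residual correlation over 0.1). With the replicate block the counts were 4, 7 and 0 in whole Six2 kidneys (T1, T3 and T3 against T1), 15 and 14 in sorted Six2 cells, 6 and 2 in sorted and whole Foxd1, 25 for development, and 6 and 12 for the interactions. The block changed the calls of Sfrp4 at E14.5 (adjusted p = 0.0652), Wnt16 in T3 (0.0561) and Wnt10b in development (0.0148).

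Only genes that were not called changed sign. With library-size scaling the log2 fold change was 0.0200 for Wnt5a (Six2 whole T1), 0.0637 for Wnt11 (T3) and 0.0308 for Sfrp2 (sorted Six2 E14.5, 0.000693 with the block). With the 1 CPM filter Wnt11 was 0.0180 (T3). For Fzd10 in development, RLE scaling gave 0.0637, the 1 CPM filter 0.0540, DESeq2 0.0638 and only the compared libraries 0.00496. Left-out libraries gave ranges across 0. In whole Six2 T1 these were -0.0427 to 0.222 (Frzb), -0.105 to 0.196 (Wnt2) and -0.155 to 0.0824 (Wnt5a), in T3 -0.0677 to 0.195 (Frzb), -0.187 to 0.159 (Wnt11) and -0.0910 to 0.208 (Wnt2), and in T3 against T1 -0.0333 to 0.0481 (Fzd10), -0.0556 to 0.291 (Wnt11) and -0.0586 to 0.0819 (Wnt2). Elsewhere they were -0.112 to 0.11 (Sfrp2, sorted Six2 E14.5), -0.0112 to 0.174 (Wnt11, sorted Foxd1), -0.480 to 0.223 (Wnt2, Foxd1 whole), -0.163 to 0.0843 (Fzd10, development) and -0.294 to 0.0467 (Sfrp2, lineage). The cause was not tested. Depth limits the sorted Foxd1 cells most, where 3 counts equal up to 1.22 CPM.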
